A study of Mus musculus with 35 samples.

Results

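The 36 mitosis genes described here encode proteins that carry a cell through the division of its chromosomes. They were taken from a named list by gene symbol, and all 36 were matched to an Ensembl identifier in the deposited count table, out of 45706 genes. They were followed in 35 libraries of microglia, the resident macrophages of the central nervous system, sorted from whole mouse spinal cord. The libraries comprised 7 of Early disease, 7 of Late disease, 7 of Recovery and 14 of Control.

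Every mouse was of a mixed C57BL/6J and C3HeJ background and was raised on a doxycycline diet. The diet was changed at 8 to 12 weeks of age, except in the rNLS8 controls kept on doxycycline. Early disease mice carried both rNLS8 transgenes and were taken 2 weeks after doxycycline was removed. Late disease mice carried the same transgenes and were taken 6 weeks after removal. Recovery mice were rNLS8 mice with 6 weeks off doxycycline followed by 1 week back on it. Controls were 6 rNLS8 mice kept on doxycycline, 4 wild-type (WT) littermates off it for 2 weeks, 1 WT littermate off it for 6 weeks, and 3 WT littermates off it for 6 weeks and back on it for 1 week. In rNLS8 mice the neurofilament heavy chain promoter NEFH drives the tTA transactivator, which switches on human TDP-43 in neurons when doxycycline is absent.

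Entry into mitosis depends on the kinase Cdk1 bound to a cyclin of the A or B type. Aurora and Polo-like kinases then build the spindle, a checkpoint holds the cell until each kinetochore is attached, and the anaphase-promoting complex with Cdc20 marks securin and cyclin B for destruction so that sister chromatids part. These genes are transcribed in late G2 and mitosis and are nearly silent in resting cells. Microglia in the healthy adult spinal cord divide rarely and can divide after injury or neurodegeneration. In RNA from a sorted population, more dividing cells and more RNA per dividing cell cannot be told apart.

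Total counts per library were 13.9 to 20.4 M. The 9 marker genes of microglia were all detected, with a summed level of 45636 to 56415 CPM (counts-per-million, scaled by trimmed means of M values, TMM) in Recovery against 48441 to 69275 CPM in Control. Library titles carry a date code. All 7 Recovery libraries have the code 0803 and no other library has it, so recovery and date code cannot be told apart. The 6 rNLS8 controls and the 3 WT controls of the recovery diet have the code 0810, and the other 5 controls share the codes 1019 and 1102 with Early and Late disease libraries. The 9 controls of code 0810 stood apart, with 14156 to 15852 genes detected against 15598 to 17347 in the other 26 libraries, and with 18.3 ± 5.74% of TPM (transcripts-per-million) lying outside the deposited table against 4.99 ± 1.99% (SD, n = 9 and 26). They also held 85 of the 99 zero values found among the 1260 values of mitosis genes, that is 26.2% of their own values against 1.496% in the other 26 libraries. For the mitosis genes, in disease or Recovery against Control, counts of calls without these controls are also given. For the marker genes and the further gene lists below, calls are given only with these controls included.

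The mitosis genes were scarce transcripts. On the TPM scale, which corrects for transcript length, the securin gene Pttg1 had the highest median over the 35 libraries at 33.3 TPM, followed by Cdk1 at 7.84 TPM and the checkpoint gene Mad2l1 at 7.16 TPM. Mki67, the gene of the proliferation antigen Ki-67, had a median of 0.594 TPM, and the kinetochore motor gene Cenpe was lowest at 0.359 TPM. Only 9 of the 36 genes were above 0 in every library, and all 36 passed the filter on low counts in the fit of 35 libraries, so that none was lost to it. In the fit of controls alone Bub1, Ttk, Cenpe, Kif11 and Kif23 did not pass it, so their changes against Control are measured from values near 0.

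The mean over the 36 genes of log2 CPM was highest in Recovery and lowest in Control. It ranged over 0.10, 1.42 and 2.24 in Early disease (lowest, median and highest library), with a mean of 1.13 ± 0.92 (SD, n = 7). Late disease libraries ran over 0.02, 1.47 and 2.23, with a mean of 1.29 ± 0.81 (SD, n = 7). Recovery libraries lay at 1.18, 1.76 and 4.21, with a mean of 2.15 ± 1.03 (SD, n = 7). In Control the values were −1.04, 0.01 and 1.33, with a mean of 0.10 ± 0.70 (SD, n = 14).

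Recovery libraries overlapped the controls only at the bottom, where Recovery 7 (1.18) lay below Control 14 (1.33). The top of the Recovery range was set by Recovery 2 at 4.21 and Recovery 3 at 2.73, and the other 5 libraries stood between 1.18 and 2.02. Without Recovery 2 the Recovery mean was 1.81 ± 0.53 (SD, n = 6), 1.71 above the Control mean, against a difference of 2.06 with it. A score over chosen genes was given no test.

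**Figure D1:**
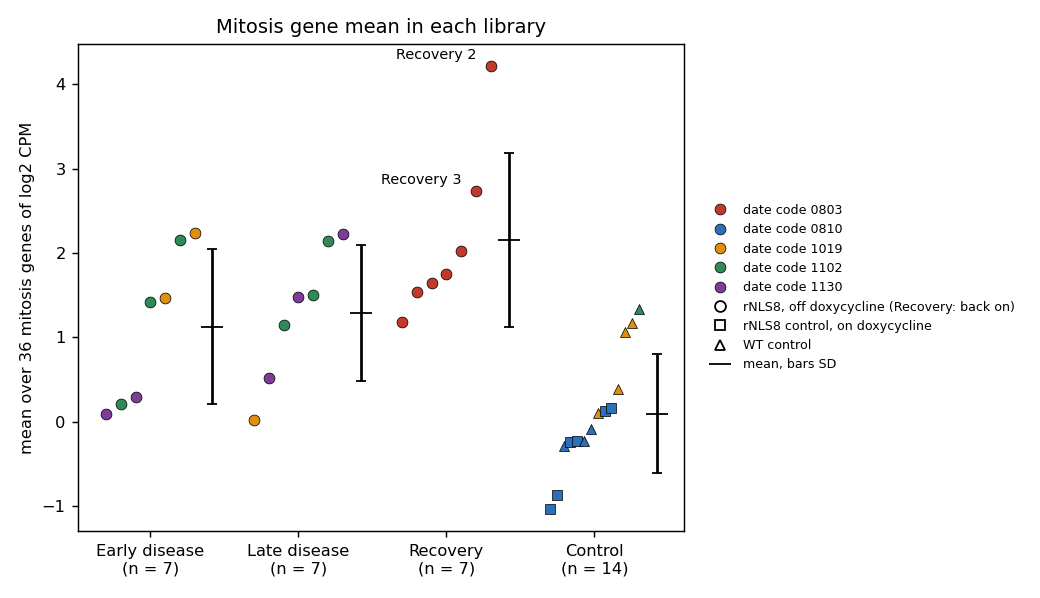
Mean over the 36 mitosis genes of log2 CPM (y axis) in each library, by phenotype; colour gives the date code, the shape gives the genotype and diet, and the bars give the mean and SD. Recovery 2 stands at 4.21, and the controls of date code 0810 fill the lower end of the Control range.

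The controls were not uniform on this measure. The 6 rNLS8 controls kept on doxycycline averaged −0.35 ± 0.50 (SD, n = 6) and the 3 WT controls of the same date code averaged −0.20 ± 0.10 (SD, n = 3). The 5 WT controls of date codes 1019 and 1102 averaged 0.81 ± 0.53 (SD, n = 5); the WT controls of code 0810 differed from them by −1.01. Set against those 5 controls alone, Early disease was 0.32 higher, Late disease 0.48 higher and Recovery 1.35 higher on the log2 scale, compared with 1.03, 1.19 and 2.06 against all 14.

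Recovery against Control asked whether the mitosis genes differ from controls once transgene expression has been shut off again for 1 week. Of the 36 genes, 18 rose and 0 fell at an adjusted p under 0.05 (edgeR quasi-likelihood test, Benjamini-Hochberg over 13501 genes), where 2.87% of all genes tested rose, 1.1% fell and 3.98% changed in either direction. All 36 had a positive log2 change, with a median of 2.04 and a range of 0.59 to 2.96, while 48.5% of all genes were positive and their median was −0.01. At an unadjusted p under 0.05 there were 31, or 86.1% of the 36 beside 17.4% of all genes. The standard errors of the 36 changes ran from 0.24 to 0.95, so that a gene such as the checkpoint kinase Ttk, with 2.64 ± 0.88 (SE) and an adjusted p of 0.0863 by edgeR, missed the threshold with a larger change than many that passed.

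Cdk1 and its cyclins rose together, 4 of 4. Cdk1, the kinase that triggers mitosis, had 3.83, 6.88 and 28.0 CPM in Recovery (lowest, median, highest) against 0.14, 2.55 and 7.84 CPM in Control. For Ccnb1, the main mitotic cyclin, Recovery libraries had 3.40, 6.91 and 23.3 CPM and Control libraries 0, 1.20 and 4.18 CPM. In both genes the groups overlapped, and for Ccnb1 only Recovery 4 lay below the highest control, Control 4. Ccna2, the cyclin that acts from S phase into early mitosis, stood at 4.10, 8.76 and 29.6 CPM in Recovery against 0.13, 2.34 and 7.04 CPM in Control. Ccnb2, the second B-type cyclin, had 1.40, 5.01 and 22.0 CPM in Recovery against 0, 1.13 and 2.78 CPM in Control. Their log2 changes were 1.60 ± 0.43 for Cdk1, 2.49 ± 0.63 for Ccnb1, 2.01 ± 0.46 for Ccna2 and 2.45 ± 0.61 for Ccnb2 (SE; adjusted p = 0.0264, 0.0171, 0.00765 and 0.0143 by edgeR).

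The 2 spindle kinases of the list also rose. Aurka, which matures the centrosomes, had 1.65, 3.16 and 17.8 CPM in Recovery against 0, 1.22 and 2.98 CPM in Control, a log2 change of 1.75 ± 0.46 (adjusted p = 0.0207 by edgeR). Plk1, the Polo-like kinase needed for spindle assembly, had 1.48, 3.89 and 20.5 CPM in Recovery against 0, 1.38 and 2.55 CPM in Control, a log2 change of 2.27 ± 0.58 (adjusted p = 0.0175 by edgeR). In each, 1 Recovery library held several times the Recovery median and the lower Recovery libraries lay within the Control range.

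All 3 genes of the chromosomal passenger complex, which corrects faulty attachments of chromosomes to the spindle and later helps to divide the cell, rose. Birc5 encodes survivin, its targeting subunit, and lies on mouse chromosome 11, chr11:117849251-117855743 (mm10, plus strand). Birc5 had 2.02, 3.29 and 16.1 CPM in Recovery against 0, 0.80 and 2.33 CPM in Control. Only Recovery 7 lay below the highest control, and the log2 change was 2.76 ± 0.55 with the smallest adjusted p of the 36 genes (adjusted p = 0.00196 by edgeR). Aurkb, the kinase of the complex, had 1.31, 3.96 and 18.6 CPM in Recovery against 0.31, 1.82 and 4.06 CPM in Control. Cdca8, which encodes borealin, had 1.90, 4.56 and 15.9 CPM in Recovery against 0.31, 1.53 and 5.45 CPM in Control. These last changes were smaller, at 1.53 ± 0.45 for Aurkb and 1.69 ± 0.50 for Cdca8 (adjusted p = 0.0458 and 0.0466 by edgeR), and their groups overlapped more widely.

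Of the 4 genes grouped under the onset of anaphase, among which Cdca3 was also placed, 2 rose. Cdc20, the activator of the anaphase-promoting complex, had 3.95, 5.61 and 25.1 CPM in Recovery against 0.75, 1.67 and 6.17 CPM in Control, a log2 change of 1.87 ± 0.44 (adjusted p = 0.0102 by edgeR). Ube2c, its ubiquitin-conjugating enzyme, had 1.95, 2.71 and 14.9 CPM in Recovery against 0, 0.80 and 1.62 CPM in Control, a log2 change of 2.62 ± 0.68 (adjusted p = 0.0205 by edgeR). Ube2c was the gene among the 17 given in full whose Recovery and Control libraries did not overlap. Cdca3, a trigger of mitotic entry, missed the threshold at 1.98 ± 0.65 (adjusted p = 0.0794), and Pttg1 at 0.91 is described further on.

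Among the 6 genes of the kinetochore and centromere, 1 rose. Cenpa, the histone H3 variant that marks the centromere, had 3.55, 5.26 and 20.3 CPM in Recovery against 0.80, 2.297 and 3.91 CPM in Control, with a log2 change of 1.55 ± 0.34 (adjusted p = 0.00548 by edgeR). The other 5 (Cenpe, Cenpf, Ndc80, Nuf2 and Spc25) had log2 changes of 0.81 to 2.46. The spindle checkpoint had no call among its 4 genes (Bub1, Bub1b, Ttk and Mad2l1) by edgeR, although each had an unadjusted p under 0.05. Mad2l1, which was detected in all 35 libraries, had the smallest change of the 36 at 0.59 ± 0.24 (adjusted p = 0.178 by edgeR).

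Of the 4 mitotic kinesins, Kif23 and Kif20a rose, both motors of the central spindle and cytokinesis. Kif23 had the largest change of the 36, at 2.96 ± 0.83 (adjusted p = 0.0353 by edgeR). It had 1.70, 2.84 and 11.8 CPM in Recovery against 0, 0.16 and 2.301 CPM in Control. With 5 of the 14 controls at 0, and no pass of the filter among controls alone, the size of this change rests on Control values near 0. Kif20a changed by 2.44 ± 0.73 (adjusted p = 0.0483 by edgeR). Tpx2, which activates Aurora A on the spindle, had 0.77, 3.34 and 22.7 CPM in Recovery against 0, 1.08 and 2.45 CPM in Control, a log2 change of 2.71 ± 0.70 (adjusted p = 0.0190 by edgeR). Prc1, which bundles the microtubules of the central spindle, had 3.25, 5.11 and 33.0 CPM in Recovery against 0, 2.58 and 5.69 CPM in Control, a log2 change of 2.05 ± 0.60 (adjusted p = 0.0433 by edgeR). Racgap1, a partner of Kif23 in cytokinesis, changed by 1.24 ± 0.37 (adjusted p = 0.0492 by edgeR), while Ect2 and Anln, which organise the contractile ring, stood at 1.06 ± 0.57 and 2.03 ± 0.66 without passing the test.

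The markers that pathologists and single-cell studies most often use for dividing cells fell on either side of the threshold. Top2a, the topoisomerase that untangles sister chromatids, had 4.54, 9.15 and 44.0 CPM in Recovery against 0, 2.38 and 8.12 CPM in Control and rose by 2.23 ± 0.61 (adjusted p = 0.0311 by edgeR). Mki67 had 2.37, 6.75 and 35.5 CPM in Recovery against 0, 1.03 and 9.20 CPM in Control, with 4 controls at 0. Its log2 change of 2.35 ± 0.71 was no smaller than that of Top2a, but its adjusted p was 0.0537 by edgeR. Mki67 was called in 6 of the 35 fits that left out 1 library and in 8 of the other settings. Without Recovery 2 it was not called (adjusted p = 0.221 by edgeR). The highest Mki67 control, Control 14, was the WT mouse off doxycycline for 6 weeks and exceeded 5 of the 7 Recovery libraries.

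**Figure D2:**
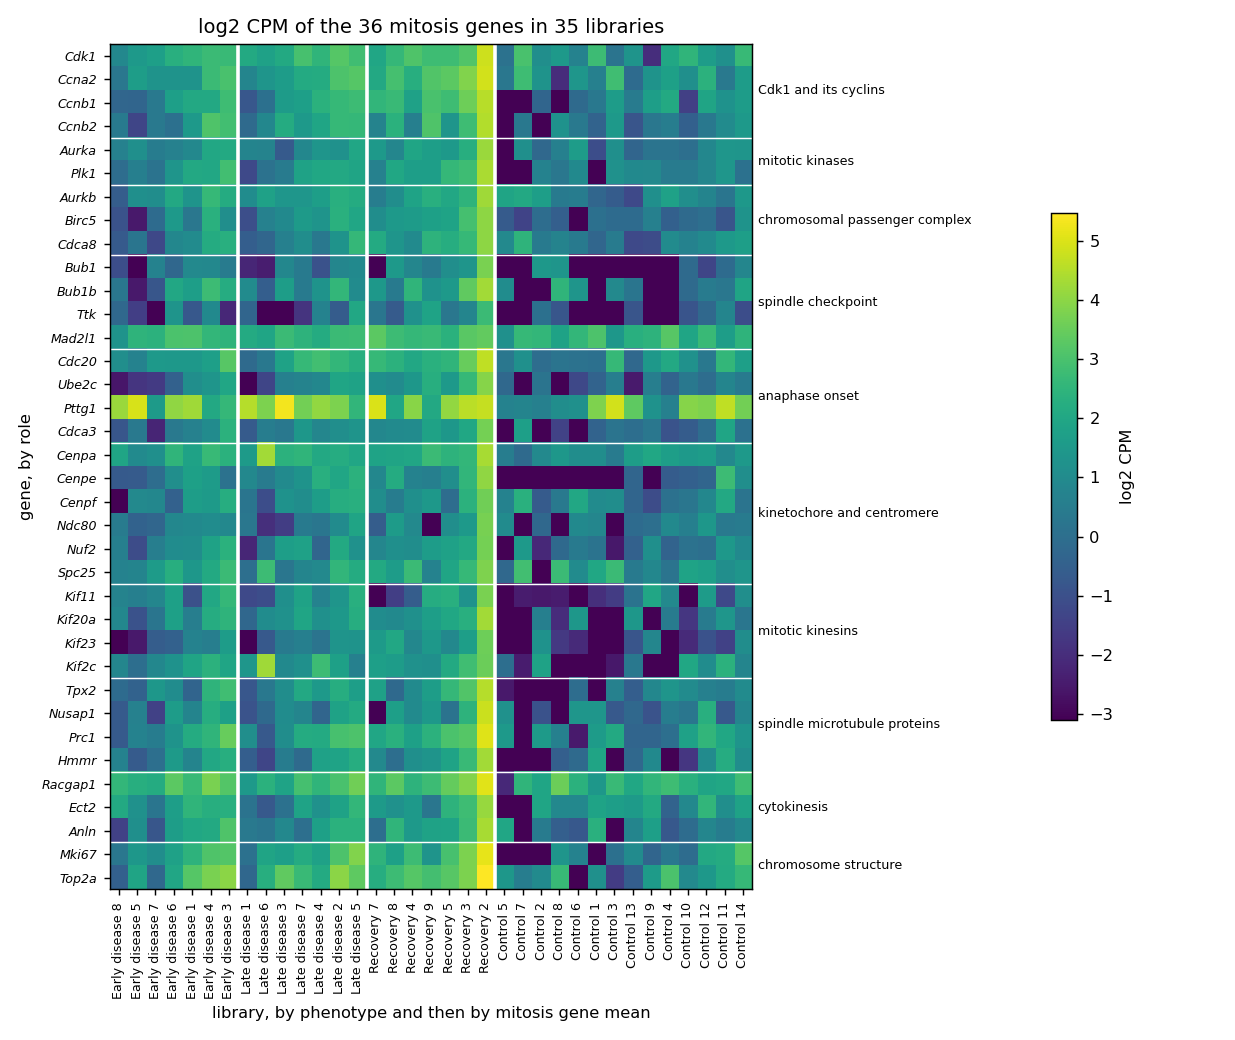
log2 CPM (colour) of the 36 mitosis genes (rows, by role) in 35 libraries (columns, by phenotype and then by their mitosis gene mean). The column of Recovery 2 is bright for nearly all genes, the darkest cells lie in controls, and the Pttg1 row has its own pattern.

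Recovery 2 had the highest CPM of all 35 libraries for 34 of the 36 genes, the exceptions being Pttg1 (highest in Late disease 3) and Kif2c (highest in Late disease 6). Without this library 1 gene rose, where 2.02% of all genes tested rose. This gene was Birc5, at 2.203 (adjusted p = 0.0176 by edgeR). All 36 changes remained positive, with a median of 1.35. Of the 18 calls, 11 were lost only when Recovery 2 was left out, 6 were lost without it and without at least 1 other library, and Birc5 was called in all 35 fits that left out 1 library. When Recovery 3 or Recovery 9 was left out, 12 genes were called in each case. Without Recovery 2 and 3 together 0 were called by edgeR, the median being 1.08 and the changes of 35 genes positive. The share of all genes called in those fits is not given here.

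**Figure D3:**
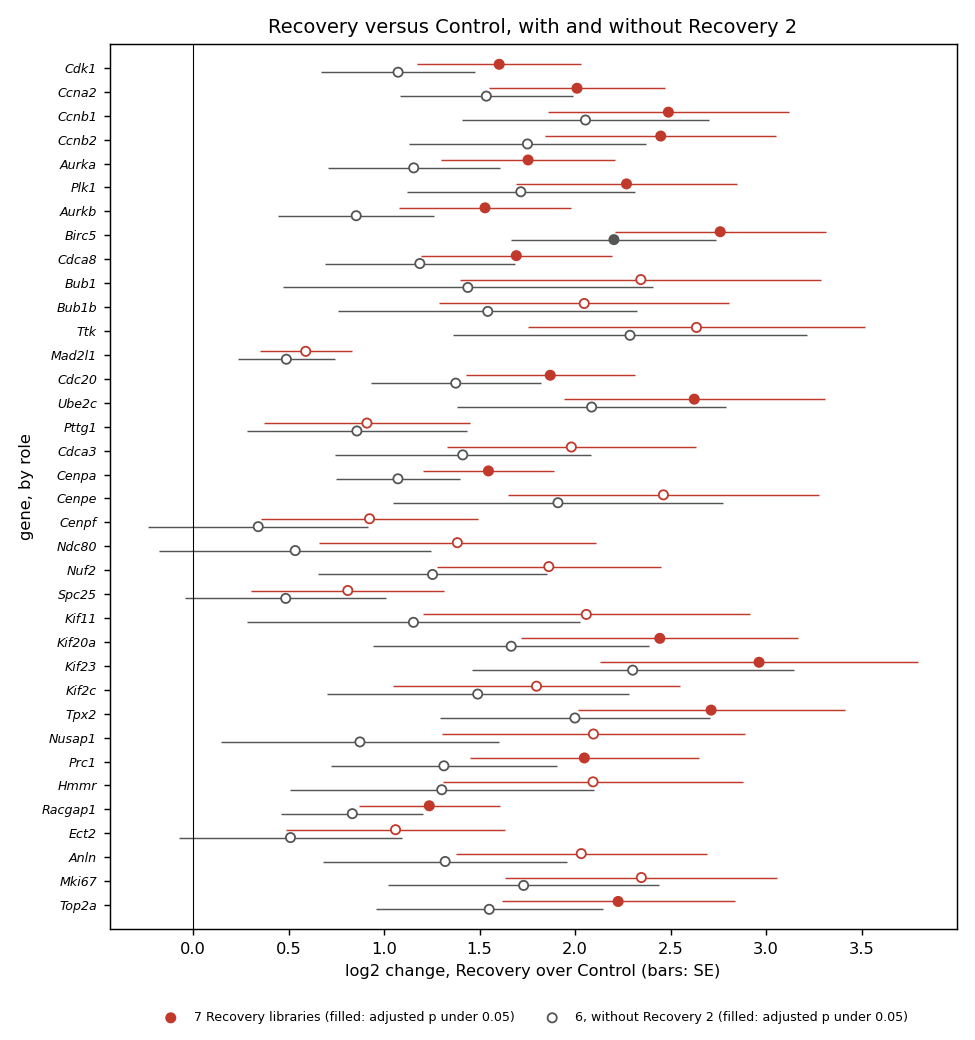
log2 change of Recovery over Control with its standard error (x axis) for each of the 36 mitosis genes (y axis, by role), from all 7 Recovery libraries and from the 6 without Recovery 2; filled points passed an adjusted p under 0.05. Filled points number 18 with Recovery 2 and 1, Birc5, without it, and all points lie to the right of 0.

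The calls also depended on which controls were used. Against the 6 rNLS8 controls 14 of the 36 rose with a median of 2.24, where 5.62% of all genes changed in either direction. Against the 8 WT controls 5 rose with a median of 1.83, where 2.2% of all genes changed. Against the 3 WT controls of the recovery diet 2 rose, where 2.86% of all genes changed. Against the 5 WT controls of date codes 1019 and 1102 none passed edgeR's test (lowest adjusted p = 0.0656; 0.952% of all genes changed), the median was 1.56 and all 36 changes were positive. With these 5 controls and without Recovery 2 the median was 0.93 and all 36 changes were positive. In that fit 0 passed edgeR's test (lowest adjusted p = 0.132), where 0.489% of all genes changed.

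Markers of other myeloid cells moved with Recovery. The summed level of 12 neutrophil genes was 794 to 7770 CPM in Recovery against 456 to 853 CPM in Control. Csf3r made up most of the Control sum, at 437 to 775 CPM in Control and 576 to 842 CPM in Recovery. Every other gene of the list had a Control median of at most 0.24 CPM. By edgeR 11 of the 12 rose, where 2.87% of all genes tested rose. The 9 monocyte genes summed to 71.2 to 608 CPM in Recovery against 6.51 to 26.3 CPM in Control, and 7 of the 8 that could be tested rose. Chil3 alone had 7.75 to 490 CPM in Recovery against 0 to 9.71 CPM in Control. Ccr2 had medians of 2.20 CPM in Recovery and 2.38 CPM in Control, and Vcan had a median of 0 in both. The 4 genes of neutrophil precursors, which divide in the bone marrow, summed to 16.4 CPM in Recovery 3, 7.81 CPM in Recovery 2, 0.66 CPM in Recovery 7, 0.37 CPM in Recovery 9 and 0 in Recovery 4, 5 and 8, and reached at most 0.50 CPM in Control. Of these genes Mpo was at 0 in all 14 controls and in 5 of 7 Recovery libraries. The neutrophil markers summed to 2501 CPM in Recovery 2, 7770 CPM in Recovery 3 and 7046 CPM in Recovery 9, whose mitosis gene means were 4.21, 2.73 and 1.76. The 7 genes of border macrophages summed to 1.91 to 29.1 CPM in Recovery against 0.73 to 10.3 CPM in Control, with a median log2 change of 2.41 and 1 of 7 past the test.

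Recovery 4, 5 and 8, which had no neutrophil precursor count, had mitosis gene means of 1.64, 2.02 and 1.54. In the list for oligodendrocyte precursors, which divide in the adult cord and lack the CD11b and CD45 used for the sort, Cspg4 alone held nearly all counts, at 2.62 to 11.6 CPM in Recovery against 0 to 2.80 CPM in Control. Of the other genes of the list, Pdgfra, Olig2, Sox10 and Olig1 were at 0 in 5, 6, 5 and 3 of the 7 Recovery libraries. The 1 gene of the list that could be tested rose. What part these cells had in the levels of mitosis genes was not tested.

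**Figure D4:**
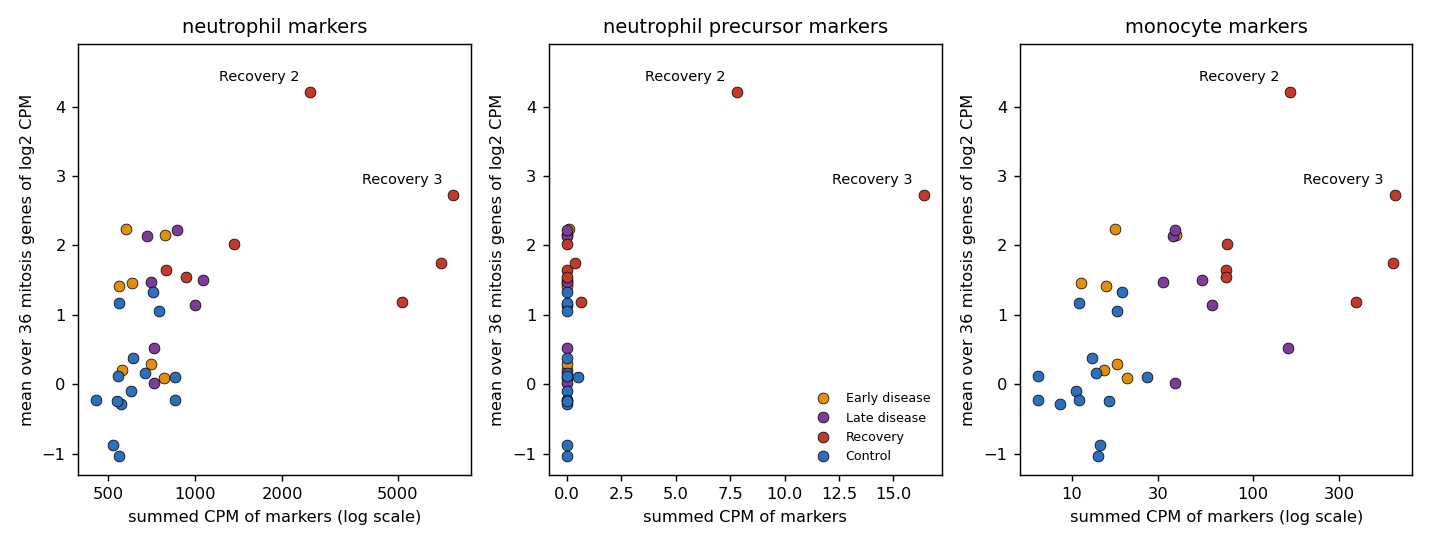
Mean over the 36 mitosis genes of log2 CPM (y axis) against the summed CPM of neutrophil, neutrophil precursor and monocyte markers (x axes; those of neutrophil and monocyte markers are on a log scale), 1 point a library, coloured by phenotype. Recovery 2 and Recovery 3 are the libraries with 7.81 and 16.4 CPM of neutrophil precursor markers, while 3 Recovery libraries with none lie between 1.54 and 2.02. Most of the neutrophil marker sum in Control is Csf3r, at 437 to 775 CPM.

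Early disease against Control asked whether the genes differ 2 weeks after the transgene is switched on. None of the 36 passed edgeR's test, where 0% of all genes tested rose and 0.00741% fell, which is also the share changed in either direction. Likewise 0 passed in DESeq2 and in limma. At an unadjusted p under 0.05 there were 5, namely Ccnb2, Plk1, Cenpa, Kif20a and Tpx2, which is 13.9% of the 36 beside 12.6% of all genes. All 36 changes were positive, with a median of 0.82, where 49.5% of all genes were positive. The lowest adjusted p was 0.305, that of Cenpa, with 1.86, 3.72 and 6.29 CPM in Early disease against 0.80, 2.297 and 3.91 CPM in Control.

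Individual Early disease mice differed widely. Mki67 had 1.11, 3.38 and 8.81 CPM in Early disease against 0, 1.03 and 9.20 CPM in Control, a log2 change of 1.23 ± 0.70 (adjusted p = 0.480 by edgeR). Top2a had 0.60, 3.81 and 15.6 CPM in Early disease against 0, 2.38 and 8.12 CPM in Control. In Birc5, Early disease libraries had 0.06, 1.11 and 4.88 CPM and Control libraries 0, 0.80 and 2.33 CPM. Early disease 3 and 4 were the highest libraries of the group for Mki67 and Top2a, whereas Early disease 5, 7 and 8 lay within the Control range, with mitosis gene means of 0.21, 0.30 and 0.10. Against the 6 rNLS8 controls, all of date code 0810, 4 of the 36 rose, where 5.48% of all genes changed in either direction. Against the 5 WT controls of codes 1019 and 1102 none rose, where 0% of all genes changed (edgeR).

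Late disease against Control asked the same 6 weeks after the switch. Of the 36 genes 2 rose and 0 fell, where 9.01% of all genes tested rose and 6.39% fell, so the share of mitosis genes called was not above that of genes in general. The changes were positive for 35 genes with a median of 0.88, and 52.1% of all genes were positive. At an unadjusted p under 0.05 there were 6, or 16.7% of the 36, below the 29.4% of all genes. Of the 9 microglia markers 5 fell in Late disease, with a sum of 26474 to 51031 CPM against 48441 to 69275 CPM in Control. The monocyte markers summed to 32.0 to 158 CPM against 6.51 to 26.3 CPM, and 2 of the 8 tested rose. Fn1 alone had 15.8 to 120 CPM in Late disease against 0 to 3.86 CPM in Control. Ms4a4c had a higher median than in Control (12.6 against 4.51 CPM) and Ccr2 a lower one (1.13 against 2.38 CPM). Ly6c2 and Chil3 had a Late disease median of 0. The part of these markers' cells in the mitosis gene values was not tested. Cenpa rose by 1.40 ± 0.35 (adjusted p = 0.00573 by edgeR) and Birc5 by 1.65 ± 0.54 (adjusted p = 0.0354 by edgeR).

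Cenpa lies on chr5:30666777-30674830 (mm10, plus strand). In Late disease it had 2.84, 4.49 and 19.4 CPM, against 0.80, 2.297 and 3.91 CPM in Control. The 19.4 CPM came from Late disease 6 and the next highest library had 5.58 CPM. Late disease 6 also had the lowest microglia marker sum of its group (26474 CPM, the next being 34784 CPM). Its monocyte and border macrophage sums were the highest of the group (158 and 22.4 CPM), and Fn1, at 120 CPM, made up most of the monocyte sum. The part of these markers' cells in the Cenpa value was not tested. Without Late disease 6 the change of Cenpa was 0.91 and the call was lost (adjusted p = 0.0633 by edgeR). The same library had 18.9 CPM of Kif2c, a kinesin that takes microtubules apart at the centromere, against 1.43 to 6.65 CPM in the other Late disease libraries, yet 0.92 CPM of Ccnb1 and a mitosis gene mean of 0.52.

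Birc5 had 0.37, 2.41 and 4.97 CPM in Late disease against 0, 0.80 and 2.33 CPM in Control. Its call was lost when Control 8 or Late disease 2, 3, 5 or 7 was left out, with changes of 1.37 to 1.86 over the 35 fits. With the date code as a term, or against the 5 WT controls of codes 1019 and 1102, no mitosis gene passed edgeR's test in Late disease. Against those 5 controls 1.41% of all genes changed, and the share for the date term is not given here. Mki67 had 0.95, 3.59 and 14.3 CPM in Late disease against 0, 1.03 and 9.20 CPM in Control, and Top2a had 0.74, 6.37 and 15.5 CPM in Late disease against 0, 2.38 and 8.12 CPM in Control. Neither passed the test, at 1.42 ± 0.70 and 1.35 ± 0.60 (adjusted p = 0.172 and 0.124 by edgeR).

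The remaining genes given in full showed the same overlap in disease. Cdk1 had 1.76, 4.85 and 6.58 CPM in Early disease, 3.38, 5.56 and 9.10 CPM in Late disease and 0.14, 2.55 and 7.84 CPM in Control. Ccnb1 had 0.70, 3.19 and 6.95 CPM in Early disease, 0.47, 3.21 and 6.76 CPM in Late disease and 0, 1.20 and 4.18 CPM in Control. These medians of both disease groups were above the Control median, and the lowest disease libraries lay inside the Control range. For Ccna2 the medians were 2.33 CPM in Early disease, 4.23 CPM in Late disease and 2.34 CPM in Control, and for Ccnb2 they were 1.21, 3.73 and 1.13 CPM in the same order. Plk1 had medians of 2.46, 3.44 and 1.38 CPM, Aurka of 1.74, 1.69 and 1.22 CPM, and Aurkb of 2.42, 3.15 and 1.82 CPM in Early disease, Late disease and Control. Cdca8 was the least changed of these, with medians of 1.72, 1.41 and 1.53 CPM. Cdc20 had medians of 2.66, 4.71 and 1.67 CPM, Ube2c of 0.61, 1.52 and 0.80 CPM, Kif23 of 0.61, 1.19 and 0.16 CPM, Tpx2 of 1.97, 2.75 and 1.08 CPM, and Prc1 of 2.33, 4.30 and 2.58 CPM. Thus Ccna2, Cdca8, Ube2c and Prc1 had a disease median at or below the Control median in at least 1 disease group.

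Between stages no mitosis gene passed edgeR's test. Late against Early disease had 0 of 36 calls (0.741% of all genes changed), 0 at an unadjusted p under 0.05 (14.2% of all genes), and 18 positive and 18 negative changes with a median of 0.02. Recovery against Late disease had 0 calls (0.585% of all genes changed), 4 at an unadjusted p under 0.05 (11.1% of the 36 beside 16.6% of all genes) and 34 positive changes with a median of 1.11, the smallest p being that of Cdca8 at 1.51 ± 0.60 (adjusted p = 0.192 by edgeR). Recovery against Early disease had 0 calls (0.793% of all genes changed, 0.0222% being lower), 8 at an unadjusted p under 0.05 (22.2% of the 36 beside 10.9% of all genes) and 36 positive changes with a median of 1.06. DESeq2 and limma also called 0 in each of these comparisons, and the Recovery groups in them again include Recovery 2. The rise against Control is thus not shown to be larger in Recovery than in either disease stage.

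Within date codes, the Late minus Early difference of the mitosis gene mean was −1.83 for code 1019 (1 Late and 2 Early libraries), 0.33 for code 1102 (3 and 3) and 1.21 for code 1130 (3 and 2). Against controls of their own code, Early disease differed by 1.17 for code 1019 (2 against 4) and −0.07 for code 1102 (3 against 1), and Late disease by −0.66 (1 against 4) and 0.26 (3 against 1). These within-date values differ in sign for both stages.

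Pttg1, the gene of securin that restrains separase until anaphase, had a library order unlike that of the mitosis gene mean. It lies on chr11:43420250-43426251 (mm10, minus strand). Its log2 changes against Control were 0.49 ± 0.55 in Early disease, 1.00 ± 0.54 in Late disease and 0.91 ± 0.54 in Recovery, none past the test (adjusted p = 0.768, 0.220 and 0.402 by edgeR). Instead its libraries separated within groups. The 6 rNLS8 controls had 1.43 to 2.26 CPM. Of the 8 WT controls, 7 had 9.90 to 29.4 CPM and 1, Control 2, had 1.44 CPM.

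In the other groups Pttg1 also split. Recovery 8 and 9 had 3.83 and 4.08 CPM and the other 5 Recovery libraries 15.4 to 31.7 CPM. Early disease 3, 4 and 7 had 5.96, 4.11 and 2.82 CPM and the other 4 had 16.4 to 30.6 CPM. Late disease 5 had 5.67 CPM and the other 6 had 12.3 to 39.7 CPM. The low libraries had no common place by mitosis gene mean. Early disease 3 and 4 (2.24 and 2.15) were the 2 highest of their group and Late disease 5 (2.23) the highest of its own, whereas Early disease 7 stood at 0.30, Recovery 8 at 1.54 and the rNLS8 control Control 5 at −1.04, the lowest of all 35.

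Among the 14 controls, rNLS8 mice on doxycycline against WT mice compared the genotypes with the transgene silent or absent. Diet differed as well, since the rNLS8 controls were never off doxycycline and all 8 WT controls had been off it for 2 or 6 weeks, 3 of them then back on it for 1 week, and 5 WT controls differed in date code. Genotype and diet cannot be told apart here. In this fit 31 of the 36 genes passed the filter, and 1 fell, where 0.00805% of all 12425 genes tested fell. This gene was Pttg1, at −3.06 ± 0.41 (adjusted p = 0.0125 by edgeR), and it was the only gene of any kind called. The call was lost without Control 5 or without Control 9 (highest adjusted p = 0.0731). Within date code 0810, where 6 rNLS8 mice are set against 3 WT mice, the change was −2.96 ± 0.57 and did not pass (adjusted p = 0.451). Of the 3 WT mice there, Control 1 and 3 had 13.8 and 29.4 CPM and Control 2 had 1.44 CPM, so the genotypes overlap through that mouse. DESeq2 called 52 genes in this comparison, Pttg1 among them (−3.05, adjusted p = 1.15e-11).

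**Figure D5:**
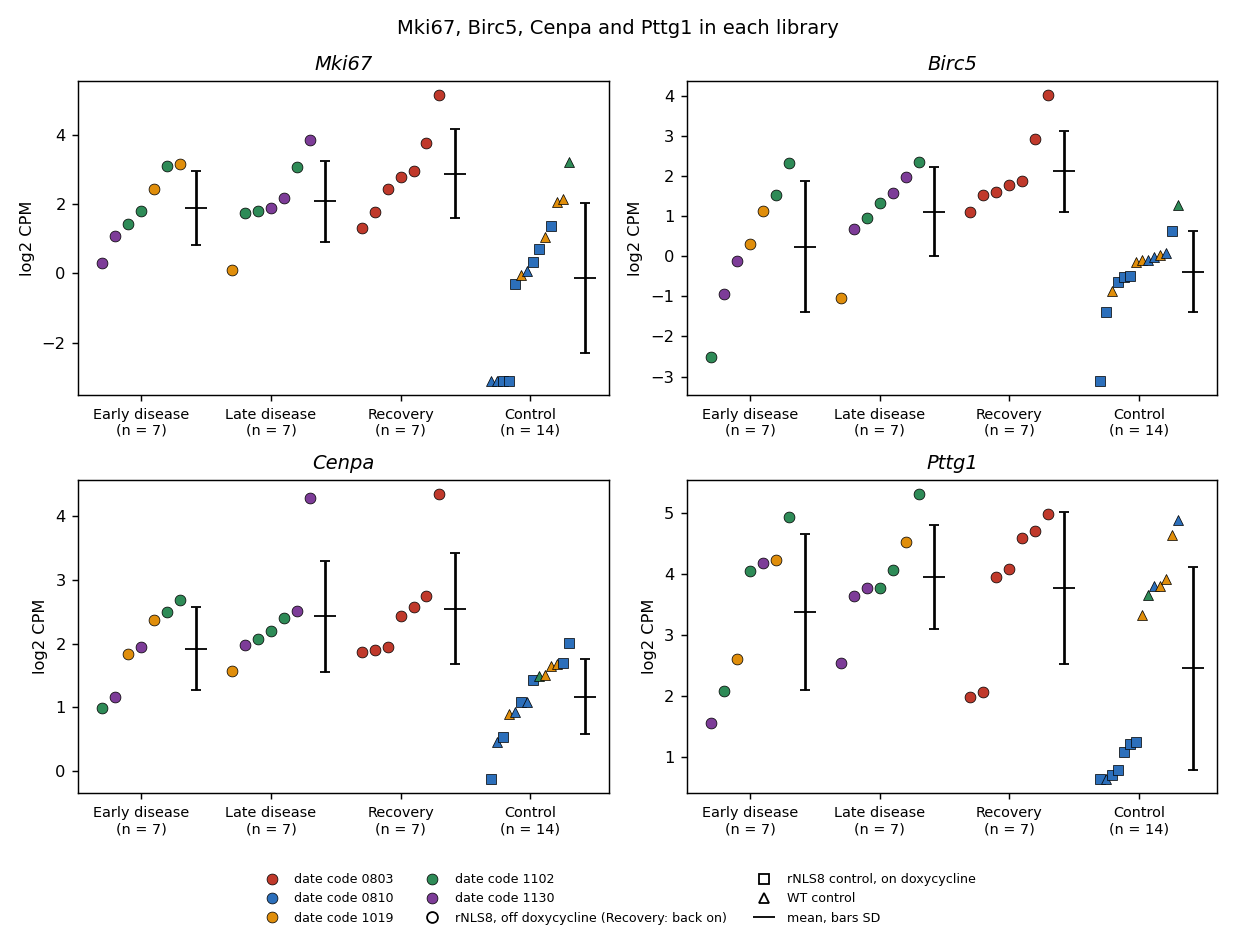
log2 CPM (y axis) of Mki67, Birc5, Cenpa and Pttg1 in each library, by phenotype, with colour for date code, shape for genotype and diet, and bars for mean and SD. Birc5 in Recovery lies almost wholly above Control, single Late disease and Recovery libraries lead Cenpa, and Pttg1 falls into a low and a high set of libraries within each phenotype.

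Genes around the mitotic programme were followed in 7 further lists. Their calls against Control include the controls of date code 0810, and calls without those controls are not given here. In Recovery against Control 2.87% of all genes tested rose and 1.1% fell, and the counts of these lists are read against those shares. Other mitosis genes rose in 7 of 56 tested in Recovery against Control, with a median log2 change of 1.42, and 0 fell. They included Spc24, a kinetochore subunit (2.41 ± 0.56), Kif4, a chromosome motor (3.16 ± 0.78), Lmnb1, a nuclear lamin (1.13 ± 0.28), and Kif18b, a kinesin of astral microtubules (4.06 ± 1.02), with adjusted p of 0.00874, 0.0138, 0.0146 and 0.0161 by edgeR. S-phase genes rose in 5 of 29, with a median of 0.56, led by the histone chaperone gene Chaf1b (3.07 ± 0.63, adjusted p = 0.00246) and the ribonucleotide reductase gene Rrm2 (2.13 ± 0.48, adjusted p = 0.00620), followed by Clspn and Mcm5. Without Recovery 2, the other mitosis genes had 0 calls by edgeR and the S-phase genes 1, Chaf1b at 2.90 (adjusted p = 0.00753). In that fit 2.02% of all genes tested rose.

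Few regulators of the programme passed the test in Recovery against Control, where 2.87% of all genes tested rose. Of 14 genes of mitotic transcription factors and their complexes 1 rose, E2f1, with 5.35, 10.2 and 14.4 CPM in Recovery against 1.37, 3.99 and 9.39 CPM in Control (log2 change 1.30 ± 0.30, adjusted p = 0.00810 by edgeR). It was also called without Recovery 2, at 1.19 (adjusted p = 0.0366). Foxm1 and Mybl2, the factors that switch on G2 and mitosis genes, did not pass, at 1.18 ± 0.53 and 2.31 ± 0.83 (adjusted p = 0.234 and 0.112), nor did Tfdp1 and E2f2. Of 17 genes of the anaphase-promoting complex and its partners, Ube2s, which extends the ubiquitin chains, rose by 0.54 ± 0.12 (adjusted p = 0.00779), and the list's median was 0.00.

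Among the 9 tested genes of the mitotic entry switch none passed edgeR's test in Recovery, the smallest p being those of Cdc25c (2.92 ± 0.96, adjusted p = 0.0794), Cdc25b, Ppp2r2d and Pkmyt1, and the list's median was 0.95. The 6 tested inhibitors of cyclin-dependent kinases had none, with Cdkn1a (p21) at 0.80 ± 0.28 ahead of Cdkn2c, Cdkn1c and Cdkn1b. The 8 cyclins and kinases of G1 had none either, and Ccnd2, Ccne1, Ccne2 and Ccnd1 had the smallest p values, with a median of the list of 0.11.

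In Late disease 9.01% of all genes rose, and these lists are read against that share. Of the other mitosis genes 4 of 56 rose (median 0.49), among them Kif4 at 2.66 ± 0.76 and the passenger complex scaffold Incenp at 0.81 ± 0.24 (adjusted p = 0.0160 and 0.0193 by edgeR), and 2 of 29 S-phase genes rose, Chaf1b and Mcm7. The anaphase-promoting complex list had 2 genes that rose and 2 that fell. In Early disease none of the genes in these 7 lists passed edgeR's test.

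The promoters of many of the 36 genes carry known sequence elements. By these, mitosis genes are held silent in resting cells and activated in G2. The elements occur in genes that rose in Recovery and also in genes not called there, such as Mki67 and Ttk. The cell cycle genes homology region, CHR, is read by the DREAM and MuvB complexes, and the CCAAT box by NF-Y. RefSeq promoter windows (GRCm38.p6, 250 bases before to 50 after the gene start) were at hand for 32 of the 36 genes. The letters TTTGAA on either strand, the core CHR, occurred in 24 of 32 (75.0%) against 20.2% of 27025 genes with a window. CCAAT on either strand occurred in 24 of 32 (75.0%) against 41.1% of genes, and both in 1 window in 21 of 32 (65.6%) against 8.0% of genes. Such matches are letters in a window and not shown binding sites.

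The 110 bases before the start are shown for 4 genes that rose in Recovery whose stretch holds a CHR, and for Birc5, the call that did not depend on a single library, whose stretch holds neither element. Prc1, which also rose and has a CHR beginning 30 bases before the start in a further window, is not shown. Capitals mark the CHR core and the CCAAT box on either strand, and these did not overlap each other. Each is read 5′ to 3′ on the strand of the gene.
Cdk1, chr10:69352913-69353022, minus strand: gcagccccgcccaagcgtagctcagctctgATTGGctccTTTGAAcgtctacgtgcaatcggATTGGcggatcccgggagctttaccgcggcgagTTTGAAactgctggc
Cdc20, chr4:118437344-118437453, minus strand: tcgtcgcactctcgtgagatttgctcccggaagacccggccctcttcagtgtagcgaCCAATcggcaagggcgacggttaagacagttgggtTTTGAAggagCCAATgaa
Ube2c, chr2:164769819-164769928, plus strand: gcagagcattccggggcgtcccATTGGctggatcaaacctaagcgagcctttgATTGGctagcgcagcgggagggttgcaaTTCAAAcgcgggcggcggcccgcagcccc
Top2a, chr11:99024190-99024299, minus strand: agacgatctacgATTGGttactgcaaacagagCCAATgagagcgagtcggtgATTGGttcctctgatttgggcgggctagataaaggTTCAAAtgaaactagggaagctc
Birc5, chr11:117849127-117849236, plus strand: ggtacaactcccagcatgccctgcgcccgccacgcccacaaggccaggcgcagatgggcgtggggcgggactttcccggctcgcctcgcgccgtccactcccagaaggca

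In the first 4 stretches the CHR nearest the gene start begins 15 (Cdk1), 18 (Cdc20), 29 (Ube2c) and 23 (Top2a) bases before it, with 2 CCAAT boxes in Cdk1, Cdc20 and Ube2c and 3 in Top2a. The Recovery changes of these 4 genes, 1.60, 1.87, 2.62 and 2.23, and that of Birc5, 2.76, are those given above. Pttg1 also had neither element in its 300-base window, as did Mad2l1, Nuf2 and Nusap1. The absence of these letters from a window says nothing of binding there or elsewhere.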

How the data were processed

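Bulk RNA sequencing of sorted mouse spinal cord microglia (CD11b and CD45, dead cells excluded) was analysed. Libraries came from a full-length low-input cDNA kit and a transposase kit, per the labels' protocols, with no strand mark, so reads of overlapping antisense genes cannot be told apart. The deposited tables hold expected counts (estimates of the fragments of each gene) and TPM. RSEM, DESeq2 and mm10 are named, per the submitters' processing notes, without versions. Of the expected counts 84.67% were whole within 1e-6, and all were rounded. Intervals and errors here cover libraries, each counted as 1 mouse as the series' design text does, and the kits have no molecular identifiers named in the labels.

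The main test was edgeR 4.0.16 (quasi-likelihood F test, R 4.3.3) on all 35 libraries with phenotype and sex, TMM scaling and the filterByExpr filter, with calls made at 0.05 after Benjamini-Hochberg adjustment over 13501 genes. SE is the log2 change divided by the square root of F. CPM are TMM-scaled; log2 CPM used a prior count of 2. Alternatives were DESeq2 1.42.0, its size factors, no filter, limma 3.58.1 on log2(TPM + 1) and log2(TPM + 0.1) with at least 1 TPM in 6 libraries, no sex term, sex from the deposited design table, a replicate block, a date term, subsets of controls and each library left out. The edgeR steps were tested on simulated data.

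The 36 genes and all lists were chosen with earlier results of these data known. Values in full are given for Mki67, Top2a, Cdk1, Ccnb1, Birc5 and the 12 other called genes with the smallest adjusted p; of each other list up to 4 genes with the smallest p in Recovery against Control are named, with Foxm1 and Mybl2. Pttg1, Kif2c, Incenp and other genes named beyond this rule were chosen after their values were seen. Replicates were compared by chi-square per gene, and no pair of 154 agreed within sampling noise (lowest mean 19.6 per gene). The sex in the labels and in the deposited design table disagreed for Control 7 and 8.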

Additional observations from a re-analysis of the deposited data

Results flagged for a closer look

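In 57 groups of 7 libraries (17 genes given in full, Pttg1 and the mitosis gene mean, in Early disease, Late disease and Recovery), the gap of the highest or lowest library to its neighbour was set against the range of its group. A share above 0.568 marks a library far from the rest. For normally spread values chance gives this in about 1 of 20 groups. The gene values were CPM without a log, so that rate need not hold for them. It was passed in 20 groups, and in 17 of them the library was Recovery 2, the highest for its gene. The mitosis gene mean, which is on the log2 scale, did not pass it in any phenotype, Recovery included. The shares in Recovery were 0.666 for Mki67, 0.77 for Top2a, 0.803 for Cdk1, 0.58 for Ccnb1, 0.611 for Birc5, 0.82 for Cenpa, 0.607 for Ccna2, 0.668 for Cdc20, 0.66 for Ccnb2, 0.715 for Plk1, 0.64 for Tpx2, 0.681 for Ube2c, 0.811 for Aurka, 0.771 for Kif23, 0.801 for Prc1, 0.765 for Aurkb and 0.694 for Cdca8. These 17 values share 1 library and are not independent. The other 3 were Cenpa in Late disease 6 (0.834, at 19.4 CPM), Cdca8 in Late disease 5 (0.673, at 5.94 CPM) and Cdc20 in Early disease 3 (0.789, at 9.41 CPM).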

How the results depend on the processing

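Calls rested on few libraries and on the choice of controls, and most of the genes are at low counts (a median of 9 for Ttk and 218 for Pttg1 over the 35 libraries). In Recovery against Control, 18 mitosis genes were called in the main design, 1 to 21 over fits that left out 1 library, 0 without Recovery 2 and 3, 5 with WT controls only, 2 with WT controls of the recovery diet, 0 with the 5 controls of date codes 1019 and 1102 (also 0 there without Recovery 2), and 0 with the 3 Recovery libraries that had no neutrophil precursor count. In Recovery the fits without Recovery 2 and 3, with controls of codes 1019 and 1102, and by precursor count were chosen after seeing the data. In Late disease against Control the count was 2, and 1 to 4 with 1 library left out. It was 1 without Control 8 or Late disease 2, 3, 5, 6 or 7, and 4 without Control 11 or 14. It was 1 with no filter, 5 with limma on log2(TPM + 1), 7 on log2(TPM + 0.1) and 0 with the date term. With rNLS8 controls only it was 6, where 17.1% of all genes changed in either direction. It was 1 with WT controls only (7.58% of all genes) and 0 with the controls of codes 1019 and 1102 (1.41%). The no-filter, limma, replicate block and date term counts have no share of all genes beside them here. The same holds for the Recovery fits without Recovery 2 and 3 and by precursor count. Fits with fewer Recovery libraries can call fewer genes of any kind. These counts are not read as results about the mitosis genes. In Early disease against Control it was 0, also with any 1 library left out, and 4 with rNLS8 controls only. Between stages the count was 0 in every fit run. Among controls it was 0 to 1 with 1 library left out and 0 within code 0810. The replicate block gave 5 calls in Early disease, 6 in Late disease and 17 in Recovery, but replicate numbers did not pair libraries: over 37 pairs of equal number the deviations correlated at −0.20 to 0.14, 2 of them above 0.1. Over single libraries left out, the mitosis gene mean exceeded Control by 0.84 to 1.20 in Early disease, 1.03 to 1.40 in Late disease and 1.71 to 2.22 in Recovery; on log2(TPM + 1) the Recovery difference was 1.13. Of the genes given in full, Cdca8 alone turned direction: −0.13 in Late disease with the replicate block, −0.38 to 0.38 there with 1 library left out (lowest without Late disease 5), and −0.14 to 0.48 in Early disease (−0.14 and −0.06 without Early disease 3 and 4). The causes were not tested.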
